A study of Mus musculus with 6 samples.

Results

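The genes of MHC class I presentation were examined in C2C12 myotubes after knockdown of *Dj1*, together with the inducible catalytic subunits of the proteasome. Members were the rows of the probe report listed, ignoring case, under H2-K1, H2-D1, H2-T23, B2M, TAP1, TAP2, TAPBP, PSMB8, PSMB9 or PSMB10. These 10 genes, of 30854 names on the array, had 20 of its 45281 probes, and each probe was kept separately. C2C12 cells are mouse myoblasts that form multinucleated myotubes in low serum. Myoblasts received 60 nM of scramble siRNA (Scramble, 3 samples) or of siRNA against *Dj1* (siDJ-1, 3 samples), were moved to differentiation medium after 48 h and were kept there for 4 days. Each group rests on 1 siRNA. The labels number the samples of a group without stating that they are separate cultures, so p-values measure only the spread between these samples. RNA of each sample was hybridized to its own array of a single Illumina BeadChip, which gives for each probe a mean signal and a detection p-value, the share of negative controls at least as bright.

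MHC class I molecules display peptides of the cell's own proteins to cytotoxic T cells. The proteasome cuts the peptides, the transporter made of Tap1 and Tap2 moves them into the endoplasmic reticulum, tapasin (Tapbp) holds the empty class I molecule at the transporter, and the loaded complex of a heavy chain with beta-2 microglobulin (B2m) travels to the cell surface. Interferons raise most of these genes and induce Psmb8, Psmb9 and Psmb10, which replace the constitutive catalytic subunits Psmb5, Psmb6 and Psmb7 to form the immunoproteasome. Resting muscle fibres are known for low class I levels, which rise in inflammatory muscle disease.

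The targeted gene was read first. Dj1 is listed as Park7 with 1 probe, whose deposited signal on Scramble arrays 1 to 3 was 12019.5, 10900.4 and 12251 and on siDJ-1 arrays 1 to 3 was 5935, 6585.5 and 4234. Every siDJ-1 array lay below every Scramble array, and after normalisation 44.7% of the Scramble signal remained (log2 fold change -1.16, adjusted p = 0.00344 by limma). The myotube label was checked against 10 marker genes. Of their 25 probes, 20 were detected on at least 3 arrays. Of these 20 probes 10 were lower and 2 higher after knockdown, at an adjusted p under 0.05. The summed signal of the list above background reached 186904, 195484 and 177871 in the Scramble group and 157986, 183073 and 138051 in the siDJ-1 group, so that the groups overlapped. This sum is carried by bright probes such as those of Acta1 and Tnnc1, neither called. Called probes of Des (log2 fold change -0.56, adjusted p = 0.0076 by limma), Tnnt3 (-0.52, adjusted p = 0.0164 by limma), Myh1 and Myh8 were all lower. The largest falls were those of the myosin heavy chains Myh1 (log2 fold changes of -2.19 and -1.93, adjusted p = 0.00284 and 0.00304 by limma) and Myh8 (-1.11, -1.03 and -1.01, adjusted p = 0.0142, 0.0129 and 0.0255 by limma). On these 5 probes every siDJ-1 array lay below every Scramble array, and the calls held under all 13 alternatives except the last, which held under 8. Myh3, also a myosin heavy chain, was not called (-0.17, adjusted p = 0.29 by limma; 0.05 with a 75th percentile shift after background correction). Titin (Ttn) had probes on both sides: both higher calls of the list were of Ttn, 1.77 (adjusted p = 0.00277 by limma), held under all 13 alternatives, and 0.76 (adjusted p = 0.0309 by limma), held under 6 of the 12 that tested it, while 3 other Ttn probes were lower, with -0.76, -0.64 and -0.59 (adjusted p = 0.0256, 0.018 and 0.0231 by limma), calls that held under 9, 12 and 9 of 13, and 2 were not called. Of 3 probes of myoblast genes only that of Myod1, a factor that starts muscle differentiation, was tested, and it fell by 0.90 on the log2 scale (adjusted p = 0.00317 by limma), a call that held under all 13 alternatives. The summed myoblast signal above background was 1171, 1241 and 972 in the Scramble group and 550, 651 and 517 in the siDJ-1 group, with no overlap. Marker genes were named after their values were seen. The part of these muscle genes in the results below was not tested.

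Of the 20 member probes, 19 were detected (detection p under 0.05) on at least 3 arrays and were tested; the other, a B2m probe (ILMN_2670561), was detected on no array. After knockdown 4 of the 19 were lower and 1 was higher at an adjusted p under 0.05. The shares were 21.1% and 5.26%, against 13.6% lower and 16.5% higher among all 17890 tested probes, of which 30.1% were called in either direction. The share called in either direction, 26.3% of the members, was thus close to that of the whole array. The log2 fold change was negative for 16 of the 19 probes, with a median of -0.34, beside a median of 0.05 over all tested probes. On the normalised scale all siDJ-1 arrays lay below all Scramble arrays for 10 member probes (52.6%), as they did for 22% of all tested probes. The probes called lower belonged to Psmb10, Psmb8 and H2-K1, and the probe called higher to H2-D1. None of the probes of the other 6 genes was called. By the same limma fit 4 of all member probes not called had an unadjusted p under 0.05, all 4 lower. With called probes counted, 8 member probes were lower and 1 higher at that level, against 3439 and 4220 of all 17890 tested probes.

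**Figure D1:**
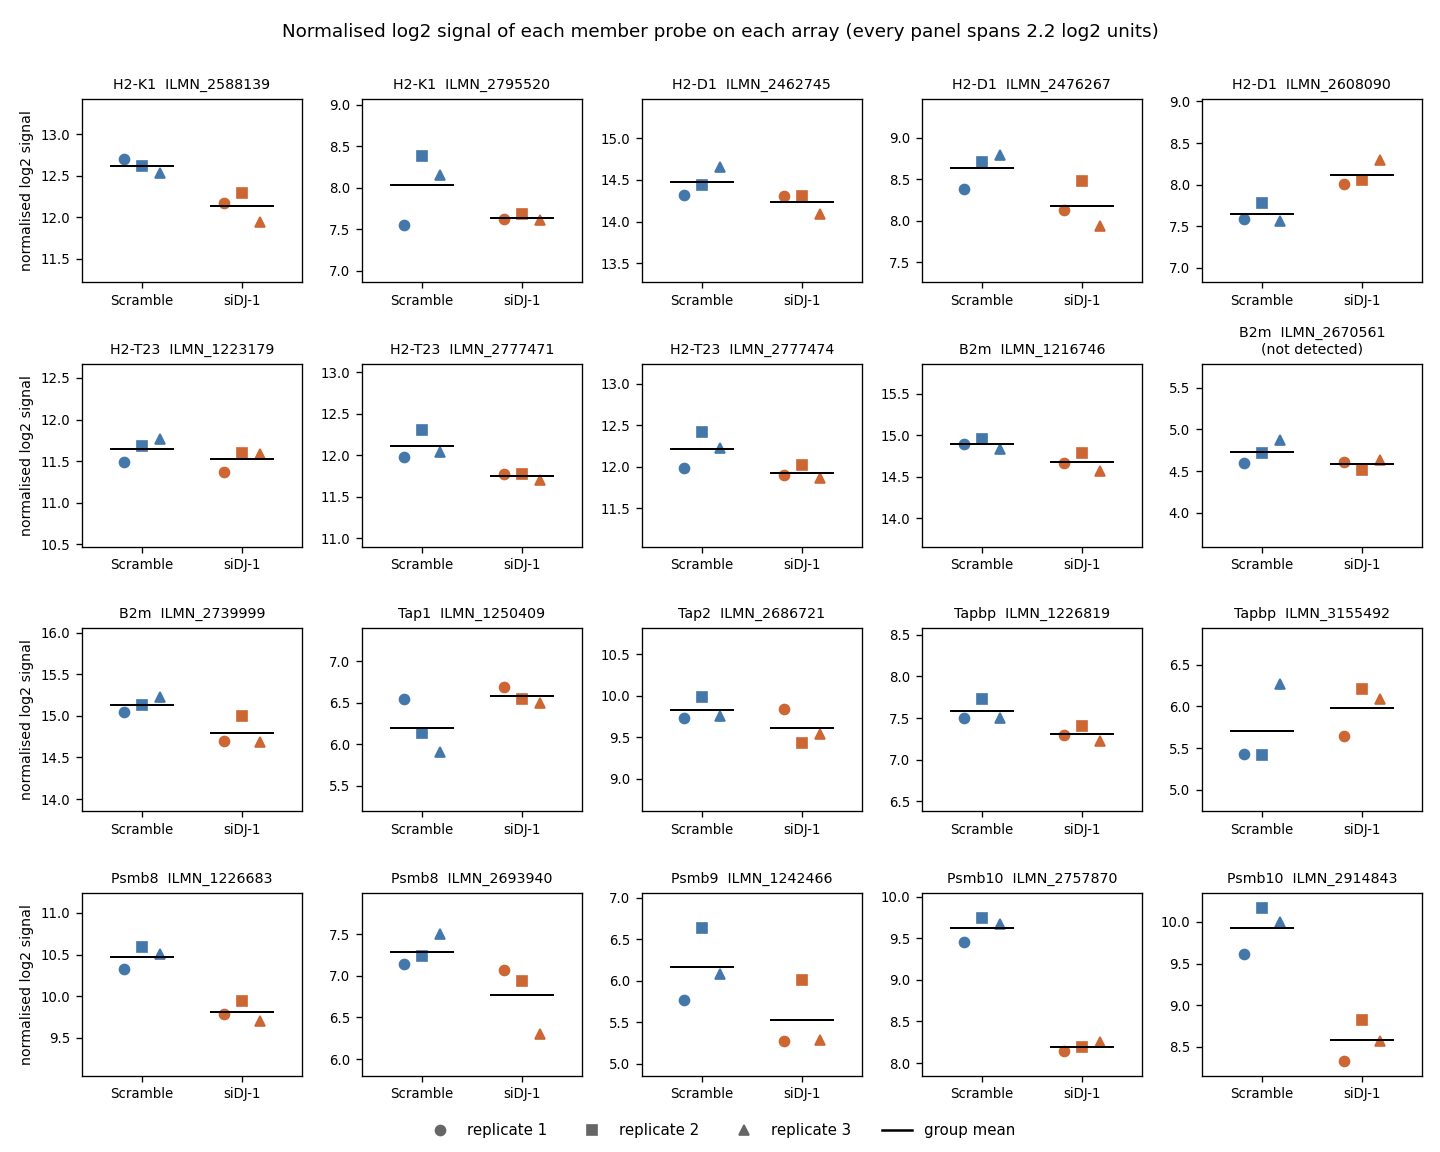
Normalised log2 signal (vertical axis) of the 20 member probes on each of the 6 arrays, with symbols for replicates 1 to 3 and a black line at each group mean. The groups stand far apart for both Psmb10 probes, and the H2-D1 probe ILMN_2608090 is higher in the siDJ-1 group while the other 2 H2-D1 probes are lower or overlap.

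Psmb10, the inducible counterpart of Psmb7, fell most. On probe ILMN_2757870 its signal was 869, 1031 and 924 on Scramble arrays 1 to 3 and 410.3, 450.1 and 382 on siDJ-1 arrays 1 to 3. On probe ILMN_2914843 it was 957, 1308 and 1128 against 449, 631 and 445. The groups were well separated on both probes, and Scramble 2 was the highest array on each. Normalised log2 signal on ILMN_2757870 was 9.63 ± 0.15 (SD, n = 3) in Scramble and 8.19 ± 0.05 (SD, n = 3) in siDJ-1 myotubes. This left 37.1% of the Scramble signal (95% interval 30.8% to 44.6%, log2 fold change -1.43, adjusted p = 0.00234 by limma). The other probe gave 39.1% (log2 fold change -1.36, adjusted p = 0.0046 by limma). From the lowest log2 fold change upwards, ILMN_2757870 ranked 162 among the 17890 tested probes. In RNA of whole cultures, fewer cells that express a gene and less RNA per cell cannot be told apart. Both calls held under each of the 13 processing alternatives, with log2 fold changes between -1.53 and -1.11.

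Psmb8, which takes the place of Psmb5, fell on 1 of its 2 probes. ILMN_1226683 read 1457, 1690.1 and 1531 in the Scramble group and 1009, 1227 and 837 in the siDJ-1 group, with no overlap. This was 63.1% of the Scramble signal (95% interval 52.0% to 76.6%, log2 fold change -0.66, adjusted p = 0.00912 by limma), and the call held under all 13 alternatives. The dimmer readings of ILMN_2693940 were 282, 300.2 and 305 against 268, 271 and 194. These groups did not overlap either, but siDJ-1 3 stood well below siDJ-1 1 and 2, and the log2 fold change of -0.52 was not called (adjusted p = 0.118 by limma). Psmb9, the counterpart of Psmb6, has 1 probe, with 194, 245.5 and 193 in Scramble and 168, 206 and 159 in siDJ-1 myotubes. It was detected on 3 Scramble arrays but on 1 siDJ-1 array (replicate 2), which as deposited lay above Scramble 1 and 3. Its log2 fold change of -0.64 was not called (adjusted p = 0.133 by limma), and near the background its size depended on the processing, from -0.86 to -0.20. Of the 12 alternatives that tested the probe, 1 called it, that with the replicate number as a block.

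The constitutive subunits that these genes replace were lower on 3 of 6 tested probes and higher on none. All 3 were probes of Psmb7, with log2 fold changes of -0.41, -0.37 and -0.34 and adjusted p of 0.0258, 0.0272 and 0.0306 by limma, while a further Psmb7 probe had -0.31 (adjusted p = 0.18 by limma). Psmb5 had -0.36 and Psmb6 -0.08, neither of them called, and the value of Psmb6 turned positive (0.07 and 0.01) under both alternatives that align the arrays' 75th percentile in place of quantile normalisation. The names Psmb5 and Psmb6 were added after their values were seen. Whether the inducible and the constitutive subunits differed in their change was not tested. Each of the 3 Psmb7 calls was lost with a 75th percentile shift after background correction, where the log2 fold changes were -0.27, -0.23 and -0.19. Each was also lost without the filter on dim probes and with the replicate number as a block. The same held without Scramble 2, Scramble 3 or any siDJ-1 array, and for the last of them without Scramble 1. Values lay between -0.46 and -0.31 when an array was left out.

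**Figure D2:**
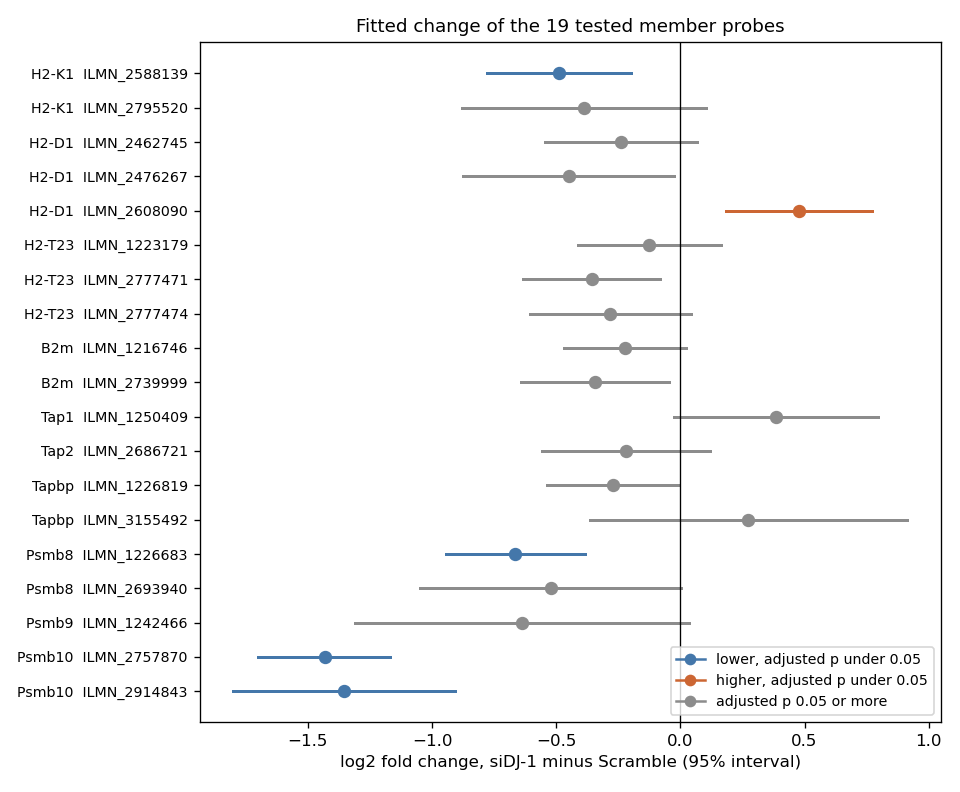
Log2 fold change of siDJ-1 minus Scramble (horizontal axis) for the 19 tested member probes, with the 95% confidence interval of the moderated test as a bar. Both Psmb10 probes lie below -1, and the 3 probes with positive values belong to H2-D1, Tap1 and Tapbp.

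The heavy chains form the peptide groove, and H2-K1 and H2-D1 are the classical, highly polymorphic ones. H2-K1 probe ILMN_2588139 gave a signal of 6749, 6508 and 5826 on Scramble arrays 1 to 3 and 4760.1, 5703 and 3650.2 on siDJ-1 arrays 1 to 3. The groups did not overlap, but siDJ-1 2 came close to Scramble 3. It fell to 71.3% of the Scramble signal (95% interval 58.3% to 87.2%, log2 fold change -0.49, adjusted p = 0.0262 by limma). The call was lost without Scramble 1, Scramble 2, siDJ-1 1 or siDJ-1 3, without the filter on dim probes, and with a 75th percentile shift after background correction, with log2 fold changes from -0.57 to -0.36 over all alternatives. The second H2-K1 probe, ILMN_2795520, had 333, 490.1 and 407.5 against 329, 358 and 292.5. As deposited, Scramble 1 lay among the siDJ-1 arrays, and the log2 fold change was -0.39 (adjusted p = 0.199 by limma); without Scramble 1 it was -0.62 and was called.

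The 3 probes of H2-D1 disagreed. ILMN_2608090 read 336, 373 and 313 in Scramble and 386, 423 and 391 in siDJ-1 myotubes, every siDJ-1 array above every Scramble array. Its log2 fold change was 0.48, or 139% of the Scramble signal (95% interval 114% to 170.0%, adjusted p = 0.0288 by limma). This call was lost without the filter on dim probes and with the replicate number as a block. It was also lost when any array other than Scramble 2 was left out. Values lay between 0.29 and 0.55 over all alternatives. ILMN_2476267 had 489.7, 582 and 564 against 407, 525 and 333, overlapping between groups, and a log2 fold change of -0.45 (adjusted p = 0.101 by limma). ILMN_2462745, with 20075, 22589.7 and 23337 against 20492, 22731 and 16149, changed by -0.24 on the log2 scale (adjusted p = 0.2 by limma). Its groups overlapped as deposited, while after normalisation every siDJ-1 array lay below every Scramble array. So no single direction can be given for H2-D1. Mouse class I genes are close copies of each other, and a probe may bind transcripts of more than 1 of them. The probe sequences were not used here, and C2C12 comes from another strain than the reference, so the values of single heavy chain genes are uncertain.

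H2-T23 encodes Qa-1, a non-classical heavy chain that presents leader peptides of other class I chains to receptors of natural killer cells. Its 3 probes had log2 fold changes of -0.36, -0.28 and -0.13, and none was called. The nearest to the threshold was ILMN_2777471, with 4152, 5251 and 4205 in Scramble and 3660.4, 4032 and 3121 in siDJ-1 myotubes (adjusted p = 0.0571 by limma). These groups did not overlap, although siDJ-1 2 was close to Scramble 1, and the probe was called under 5 of 13 alternatives. For the other 2 probes the groups overlapped on the normalised scale.

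B2m is the shared light chain of class I molecules. ILMN_2739999 read 31388, 36744 and 34769 in Scramble and 27846, 37639 and 26243 in siDJ-1 myotubes. As deposited, siDJ-1 2 was the brightest of all 6 arrays, while after normalisation all siDJ-1 arrays lay below all Scramble arrays. The log2 fold change was -0.34 (adjusted p = 0.0792 by limma); it ranged from -0.46 to -0.07 over the 13 alternatives and was called under 4 of them. On ILMN_1216746 it was -0.22 (adjusted p = 0.146 by limma), and it turned positive (0.07 and 0.01) under the same alternatives as that of Psmb6. The 95% intervals ran from -0.64 to -0.05 on the former probe and from -0.47 to 0.02 on the latter.

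The transporter and tapasin had no called probe among 4 tested. Tap1 read 232, 213 and 185 in Scramble and 236, 238 and 204 in siDJ-1 myotubes. Scramble 1 lay among the siDJ-1 arrays, and the log2 fold change was 0.39 (adjusted p = 0.136 by limma); without Scramble 1 it was 0.58 and was called. Tap2 had 1021, 1180 and 969 against 1046, 893 and 770.0, with siDJ-1 1 among the Scramble arrays and a log2 fold change of -0.22 (adjusted p = 0.282 by limma). The Tapbp probes went in opposite directions, with -0.27 on ILMN_1226819 (adjusted p = 0.113 by limma) and 0.27 on ILMN_3155492 (adjusted p = 0.473 by limma), which was detected on 1 of 3 Scramble arrays. Tap1 and Psmb9 are neighbours that start close together on opposite strands, and their single probes had opposite signs, neither of them called.

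Because interferon-driven members share known promoter elements, the 250 bases before the start were searched in the RefSeq promoters (GRCm38.p6) of 9 of the 10 genes; no entry was given for Tap2. Letters searched on both strands were GAAANNGAA and GAANNGAAA (spacings of the interferon-stimulated response element), TTCNNNGAA (the gamma-activated site), GGGNNTTCC (kappaB-like), TGACGC (site alpha) and CCAAT (Y box). Of 32851 promoters of this length 7.13%, 6.31%, 7.02%, 4.98%, 6.12% and 33.8% held them, in that order. The promoters of H2-K1, H2-D1, B2m, Psmb8 and Psmb10 are shown 5′ to 3′ to set members with a probe called lower beside members without one. Capitals mark every match.
H2-K1, chr17:34000348-34000597, minus strand: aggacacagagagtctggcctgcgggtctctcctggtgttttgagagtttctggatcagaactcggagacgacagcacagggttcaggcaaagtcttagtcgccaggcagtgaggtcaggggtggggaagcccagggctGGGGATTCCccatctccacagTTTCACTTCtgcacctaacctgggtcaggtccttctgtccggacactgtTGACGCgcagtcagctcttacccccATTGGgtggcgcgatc
H2-D1, chr17:35262844-35263093, plus strand: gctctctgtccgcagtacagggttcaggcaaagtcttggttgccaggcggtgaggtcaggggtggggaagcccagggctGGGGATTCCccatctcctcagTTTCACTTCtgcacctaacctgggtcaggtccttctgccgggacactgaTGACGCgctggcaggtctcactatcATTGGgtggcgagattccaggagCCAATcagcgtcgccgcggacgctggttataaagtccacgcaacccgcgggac
B2m, chr2:122147437-122147686, plus strand: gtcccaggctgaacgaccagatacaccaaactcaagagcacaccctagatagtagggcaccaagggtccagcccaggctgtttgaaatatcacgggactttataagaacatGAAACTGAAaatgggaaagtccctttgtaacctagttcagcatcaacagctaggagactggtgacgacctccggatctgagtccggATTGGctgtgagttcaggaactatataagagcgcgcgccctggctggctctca
Psmb8, chr17:34197945-34198194, plus strand: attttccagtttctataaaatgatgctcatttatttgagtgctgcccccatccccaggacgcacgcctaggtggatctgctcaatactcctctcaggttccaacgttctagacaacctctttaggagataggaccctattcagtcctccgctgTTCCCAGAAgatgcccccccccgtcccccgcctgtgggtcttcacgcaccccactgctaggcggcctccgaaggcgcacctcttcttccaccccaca
Psmb10, chr8:105938393-105938642, minus strand: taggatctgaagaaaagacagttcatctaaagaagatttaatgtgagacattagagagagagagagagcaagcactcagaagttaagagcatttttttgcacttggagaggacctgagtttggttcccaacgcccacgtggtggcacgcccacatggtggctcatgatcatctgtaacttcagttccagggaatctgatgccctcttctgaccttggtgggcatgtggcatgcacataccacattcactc
H2-K1 and H2-D1 each held GGGGATTCC, then TTTCACTTC (GAANNGAAA on the other strand), then site alpha and then a Y box on the other strand. The part of these letters in the changes of signal was not tested. B2m held GAAACTGAA and a Y box on the other strand, H2-T23 held TTCTCTTTC (GAAANNGAA on the other strand) and a Y box, and Psmb8 held TTCCCAGAA. Tapbp, Psmb9 and Tap1 held a Y box and no other of these letters, so that 8 of the 10 member promoters had a Y box. H2-K1 has 2 of these 10, with starts close together, and the one not shown holds the same matches and a further Y box. The windows of Psmb9 and Tap1 overlap on opposite strands, and their Y box is the same site, counted for each. Psmb10, which fell most, held none of these letters in its window. A match is a description of the sequence; binding was not measured.

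Other genes of the pathway were taken as lists. They had 114 tested probes in all, of which 23 (20.2%) were lower and 10 (8.77%) higher. Of 23 tested probes of other class I and class I-like heavy chains, 4 were lower and 3 higher. H2-K2, a close relative of H2-K1, changed by -0.46 on the log2 scale (adjusted p = 0.0288 by limma), a call that held under 5 of 13 alternatives. H2-Q7, a Qa-2 gene, had -0.69 on a dim probe detected on 1 siDJ-1 array (adjusted p = 0.0481 by limma). This call held under only 2 of the 12 alternatives that tested the probe, and without background correction the log2 fold change was -0.22. A brighter H2-Q7 probe detected on every array, added after its values were seen, had -0.46 (adjusted p = 0.0145 by limma), and its call was lost only without siDJ-1 1. Fcgrt, the receptor that recycles IgG and albumin, rose by 0.54 (adjusted p = 0.0163 by limma), and the call was lost without siDJ-1 1 or siDJ-1 3. H2-T18 was called higher (adjusted p = 0.0312 by limma) on a probe with no detection in the Scramble group, whose signal was 179.7, 163.5 and 165.8 in Scramble and 192.4, 192.6 and 173.3 in siDJ-1 myotubes. As deposited the groups overlapped, the call held under only 3 of the 12 alternatives that tested the probe, and no size of the change is given. Of 6 tested peptide trimming and loading partners only Thop1, a cytosolic peptidase, was called, with 0.37 (adjusted p = 0.034 by limma), and that call held under 6 of 13 alternatives.

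Of 9 tested probes of proteasome activators and assembly factors, 3 were lower. They were Psme3, a nuclear activator (-0.67, adjusted p = 0.00714 by limma), Psmf1, a regulator of the core particle (-0.82, adjusted p = 0.0343 by limma), and Pomp, the assembly chaperone (-0.34, adjusted p = 0.0372 by limma). The Psme3 call held under all 13 alternatives. That of Pomp held under 4 and was lost without any 1 of the 6 arrays, and its log2 fold change was -0.18 with a 75th percentile shift after background correction. The Psmf1 probe was detected on 1 siDJ-1 array, its call held under 4 of the 12 alternatives that tested it, and without background correction its log2 fold change was -0.26. Another Psmf1 probe had 0.12 (adjusted p = 0.448 by limma). Psme1 and Psme2 form the interferon-inducible activator and were named after their values were seen; they had -0.35 and -0.23 (both Psme1) and -0.24, none called. Among the other 20S subunits 4 of 11 probes were lower, of Psmb3 (-0.50), Psmb2 (-0.47 and -0.46) and Psma4 (-0.37), with adjusted p of 0.0235, 0.0162, 0.0188 and 0.0408 by limma. These calls held under 7, 11, 8 and 5 of 13 alternatives, in that order, and all 4 were lost with a 75th percentile shift after background correction, where Psma4 had -0.21.

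**Figure D3:**
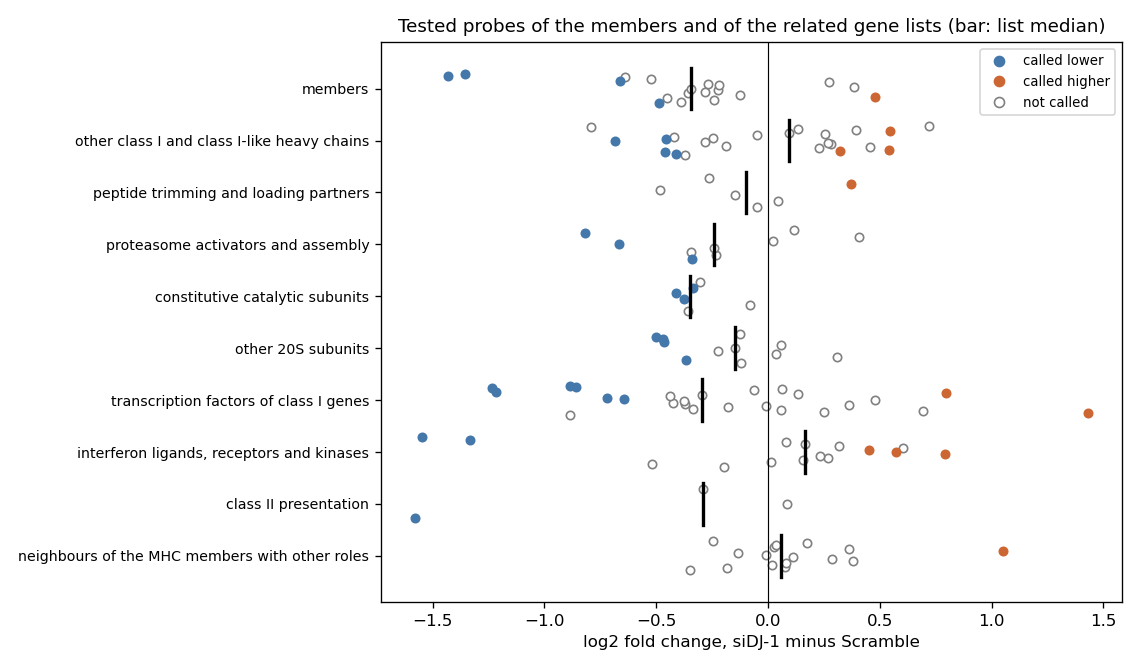
Log2 fold change of siDJ-1 minus Scramble (horizontal axis) for each tested probe of the members and of 9 related lists; filled points have an adjusted p under 0.05 and the bar is the list median. The members have a median of -0.34, and the called probes of transcription factors and of interferon signalling lie on both sides of 0.

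Transcription factors of class I genes had 25 tested probes, 6 lower and 2 higher. Stat2, which carries type I interferon signals to the nucleus, fell by 0.89 on the log2 scale (adjusted p = 0.00839 by limma). Nfyc, a subunit of the factor that binds the Y box, fell by 1.22 (adjusted p = 0.00292 by limma). Nfyb, another subunit of that factor and named after its values were seen, rose by 0.80 (adjusted p = 0.0098 by limma), with every siDJ-1 array above every Scramble array, and the call held under all 13 alternatives. Creb1, which can bind site alpha, had no detection in the Scramble group with ILMN_3120454 and rose at least 2.24-fold after background correction, measured from the dimmest detected probe of those arrays (adjusted p = 0.0031 by limma). Without the correction its log2 fold change was 0.50, also called, while its other tested probe had 0.25 (adjusted p = 0.276 by limma). The class I transactivator Nlrc5, named after its values were seen, was detected on 2 Scramble arrays and 1 siDJ-1 array and had -0.89 (adjusted p = 0.0593 by limma). Over the 12 alternatives that tested the probe its value ranged from -1.14 to -0.27, and it was called under 5 of them. Irf9, a partner of Stat2, and Irf7, also named afterwards, fell by 0.72 and 0.64 (adjusted p = 0.0115 and 0.0157 by limma), the Irf7 call being lost without siDJ-1 1 or siDJ-1 3, and a further Irf9 probe had -0.44 (adjusted p = 0.198 by limma).

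In interferon signalling 2 of 15 tested probes were lower and 3 higher. Both lower probes were of Usp18, an interferon-induced brake on the type I receptor, with log2 fold changes of -1.55 and -1.34 (adjusted p = 0.00374 and 0.00556 by limma). The receptor kinases Jak1 and Jak2 were higher, by 0.79 on Jak1 and 0.57 and 0.45 on Jak2 (adjusted p = 0.0145, 0.00643 and 0.022 by limma). The first of these calls was lost without siDJ-1 1 or siDJ-1 3, the second held under all 13 alternatives and the third under 7. Of 20 class II presentation probes only 3 were detected on at least 3 arrays, and 1 was called. It was Cd74, the invariant chain, with 189.9, 256 and 255 in Scramble myotubes and no detection on any siDJ-1 array, lower by at least 2.19-fold after background correction (adjusted p = 0.0162 by limma). Without the correction the log2 fold change was -0.57, also called, and the call was lost without any 1 of the siDJ-1 arrays. Neighbours of the MHC members with other roles had 16 tested probes, of which only 1 was called, a higher probe of the nuclear receptor gene Rxrb (log2 fold change 1.05, and 0.59 without background correction, adjusted p = 0.00305 by limma). Of the 26 calls of Park7 and the genes named by rule in these lists, 10 held under every alternative that tested the probe, among them those of Park7, Usp18 (both probes), Jak2, Rxrb, Psme3, Creb1, Nfyc and Stat2, and the rest of the 26 were lost under at least 1. Leaving out 1 array ended between 4 (without Scramble 1) and 16 (without siDJ-1 1) of the 26.

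Immune cells also carry these genes, so their markers were read on the same arrays. Of 11 macrophage probes 9 were detected on no array, and only Cd68, the brightest, was tested (log2 fold change 0.52, adjusted p = 0.169 by limma). The summed macrophage signal above background came to 107, 199 and 86 in Scramble and 168, 128 and 91 in siDJ-1 myotubes. Of 8 lymphocyte and pan-leukocyte probes 7 were detected on no array and none was tested. Their summed signal was 147, 107 and 59 against 86, 54 and 101, with Cd3e the brightest. Of 5 dendritic cell probes 3 were detected on no array and Zbtb46 alone was tested (adjusted p = 0.115 by limma), and of 6 endothelial and 2 adipocyte probes none was tested. The macrophage and leukocyte sums overlapped between groups. The standard error over beads, as a median share of signal over the tested member probes, was 5.11%, 4.39% and 5.28% in the Scramble group and 4.55%, 4.08% and 3.92% in the siDJ-1 group. Its part in the calls was not tested.

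The member probes did not all follow 1 pattern over the arrays. The mean of their standardised log2 signals was highest on Scramble 2 and lowest on siDJ-1 3, and Scramble 1 lay nearest to the siDJ-1 group. Tap1, the H2-D1 probe ILMN_2608090 and the Tapbp probe ILMN_3155492 ran against this mean (Pearson r of -0.82, -0.777 and -0.198), and Tap2 followed it loosely (0.555). The probes of other genes most like this mean over the 6 arrays were those of 9430090I01Rik, Pid1, Fbxw5, Tmem160 and Acsl5, with Pearson r of 0.998, 0.997, 0.996, 0.995 and 0.995. In all 1377 other probes had an r over 0.9, as 6 arrays in 2 groups set few patterns apart. Of these 5 probes 3 were called lower, of Pid1 (log2 fold change -0.97), 9430090I01Rik (-0.47) and Acsl5 (-0.46), and these calls held under 11, 4 and 6 of 13 alternatives. A further Acsl5 probe was not called, nor under any of the 13 (-0.37 to -0.16).

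**Figure D4:**
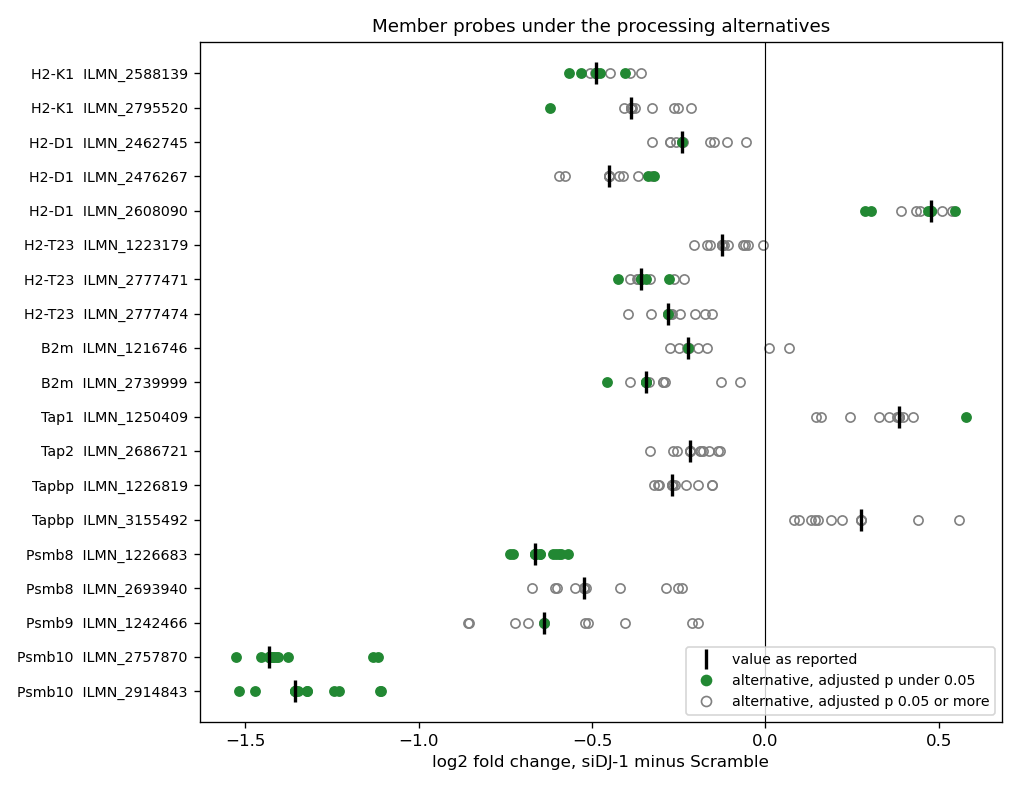
Log2 fold change of siDJ-1 minus Scramble (horizontal axis) of each tested member probe as reported (black bar) and under up to 13 processing alternatives (points, filled where the adjusted p is under 0.05). Psmb10 and the Psmb8 probe ILMN_1226683 are filled throughout, and a B2m probe crosses 0.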

How the data were processed

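The authors scanned the arrays, quantified them in GenomeStudio and deposited intensity and detection p-value for each of 45281 probes, neither normalised nor background-subtracted. In R 4.3.3 with limma 3.58.1, background was corrected by normexp (offset 16, with negative control levels derived from detection p-values), followed by quantile normalisation and log2. The 17890 probes with detection p under 0.05 on at least 3 of 6 arrays were fitted with lmFit and eBayes, 3 siDJ-1 against 3 Scramble arrays, with Benjamini-Hochberg adjustment across these probes (two-sided, threshold 0.05). Exact permutation of 3 arrays against 3 cannot give p under 0.1. Probes were named through RefSeq (GRCm38.p6), which matched 32345 probes and all 20 member probes, or otherwise by the file. Members and lists were chosen with earlier results of these data known. Named by rule were all member and Park7 probes, up to 4 called probes per list by size of change (where none was called, the largest), and the 5 probes most like the members; 1 called probe of a list is not reported here. GAANNGAAA was added after seeing the promoters. Background for summed signals was the array's median over probes with detection p over 0.5. The scripts were tested on simulated data. The 13 alternatives were no background correction, a 75th percentile shift with and without it, testing every probe, testing those with detection p under 0.01 on all 6 arrays, a trend of the prior variance, the replicate number as a block, and each array left out. The number of arrays limits the precision.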

Additional observations from a re-analysis of the deposited data

How the results depend on the processing

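Of the 5 member calls, those of Psmb10 (both probes) and Psmb8 held under all 13 alternatives, and 18 of 19 member probes kept their sign. The B2m ILMN_1216746 log2 fold change and the Psmb6 ILMN_2895862 log2 fold change, neither called, turned from negative to 0.0667 and 0.0705 with a 75th percentile shift after background correction and to 0.00987 and 0.0145 without the correction. The uncalled Myh3 ILMN_1227179 log2 fold change turned to 0.0458 with the former, and the uncalled TTN ILMN_1220329 log2 fold change was positive except without siDJ-1 replicate 3, with -0.0538 to 0.182 when an array was left out. Without background correction 7 member probes were called lower, and with a trend of the prior variance 9, against 4. Without the filter, with all 45281 probes tested, 3519 probes were called in all against 5387, no member higher (0 against 1), and 13 lower and 6 higher pathway list probes against 23 and 10. The 75th percentile shift after background correction gave 14 lower pathway list probes. With the replicate number as a block, 0 member probes were called higher, 5 lower, 15 pathway list probes lower and 4350 probes in all. Deviations of same-numbered samples from their group means correlated at 0.0537, 0.0474 and 0.0199, and every sample correlated best with its own number. These low values were taken after quantile normalisation, which removes differences in the signal of whole arrays. The deposited median signal was 162.2, 167.4 and 153.5 on Scramble arrays 1 to 3 and 161, 166.9 and 152.3 on siDJ-1 arrays 1 to 3. So the correlations cannot settle whether the numbers mark pairs. Leaving out each array, which leaves fewer samples, gave 2559 to 5271 calls in all, 3 to 5 member probes lower, 0 to 1 higher, 8 to 23 pathway list probes lower and 4 to 11 higher. The lowest counts in all came without siDJ-1 replicate 1 (2559) and siDJ-1 replicate 3 (2712). The median over the member probes lay between -0.40 and -0.20, and the Park7 log2 fold change between -1.24 and -1.003. The cause of these moves was not tested. Signal near background limits Psmb9, Tap1 and the Tapbp probe ILMN_3155492.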
